A study of Mus musculus with 6 samples.

Results

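The 10 genes described here encode the subunits of the transcription factor NF-kappaB (Rel, Rela, Relb, Nfkb1 and Nfkb2) and a set of its inhibitors (Nfkbia, Nfkbie, Nfkbiz, Bcl3 and Tnfaip3). The rule takes every probe whose gene symbol in the array tables is one of these 10. This gave 12 of the 46643 probes of the array and 10 of the 31484 genes with a symbol. Nfkb1 and Nfkbie have 2 probes each and the other members 1 each. The study measured RNA of natural killer (NK) cells taken from 3 tissues of the mouse, on Illumina bead arrays with 2 arrays per tissue. The groups were NK cells of spleen, of intestine and of skin, all sorted for CD45, NKp46 and the marker given as NK11, with CD3-positive cells left out. The mice of all 3 groups were males of the C57BL/6 strain, 12 weeks old and lacking Rag2 (RAG-2-KO), so the spleen group carries the deletion too and no group has a normal Rag2. Animals without Rag2 make no mature T or B cells, and the cells were studied in that setting only. The series title names the receptor ROR gamma-t and its roles in NKp46+ cells of spleen, gut and skin.

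NF-kappaB dimers are held in the cytoplasm by IkappaB proteins. A signal from a cytokine, Toll-like or antigen receptor activates the IkappaB kinases, the IkappaB protein is degraded, and the dimer moves to the nucleus and switches on genes of inflammation and survival. Several inhibitors of the pathway, among them Nfkbia and Tnfaip3, are themselves known targets of NF-kappaB and limit the response. In a second branch the kinase NIK, encoded by Map3k14, drives the processing of the Nfkb2 product to p52, which pairs with RelB. In NK cells the pathway is known for roles in maturation and in the answer to cytokines.

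Signals are the deposited array signals, scaled so that every array has a mean of 83.1, and they carry no unit. All 12 probes had a detection p-value under 0.01 on all 6 arrays. Differences are on the scale of log2(signal + 16) after quantile normalization, with the standard error of a limma fit to all 6 arrays (n = 2 per tissue) and p-values adjusted by the Benjamini-Hochberg method over 13455 genes. A gene was called where that adjusted p was under 0.05. The offset by itself makes the differences of dim genes smaller, and the quantile normalization moves differences too. A fold can thus lie above or below the plain ratio of mean signals. For intestine against spleen, fold and ratio were 2.02 and 1.95 in Bcl3, 3.95 and 3.64 in Relb and 12.3 and 26.7 in Rel. The 3 comparisons use the same arrays in turn and are not independent of each other. No label says that the 2 arrays of a tissue came from separate mice, so p-values here reflect only the scatter of these 6 samples, and that scatter may be technical.

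All 10 members were called higher in NK cells of the intestine than in those of the spleen. In the same comparison 21% of all genes tested were called higher. Of the 10, 9 were over 2-fold higher, as were 6.78% of all genes. The ninth, Bcl3, was at the limit with 1.02 on the log2 scale, and fell to 0.66 with the arrays as deposited, 0.63 with scaling to the median over all probes and 0.53 with an offset of 64. Their median difference was 2.33 on the log2 scale, and that of all genes was -0.04. Against skin, 10 of 10 were again called higher in intestine (16.4% of all genes), 9 of them over 2-fold (6.15% of all genes), with a median of 2.11 against -0.08 over all genes. On both intestine arrays each of the 10 genes had a higher normalized value than on any of the 4 spleen and skin arrays, which was true of 20.2% of all genes. In skin against spleen 1 of 10 was called higher, Tnfaip3, and none was called lower, where 13.1% of all genes were called higher, 11.4% lower and 24.5% either way. Tnfaip3 was over 2-fold higher there, and 1.43% of all genes tested were called and over 2-fold higher. These are RNA levels in sorted populations, where fewer cells of a type and less RNA per cell cannot be told apart.

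**Figure D1:**
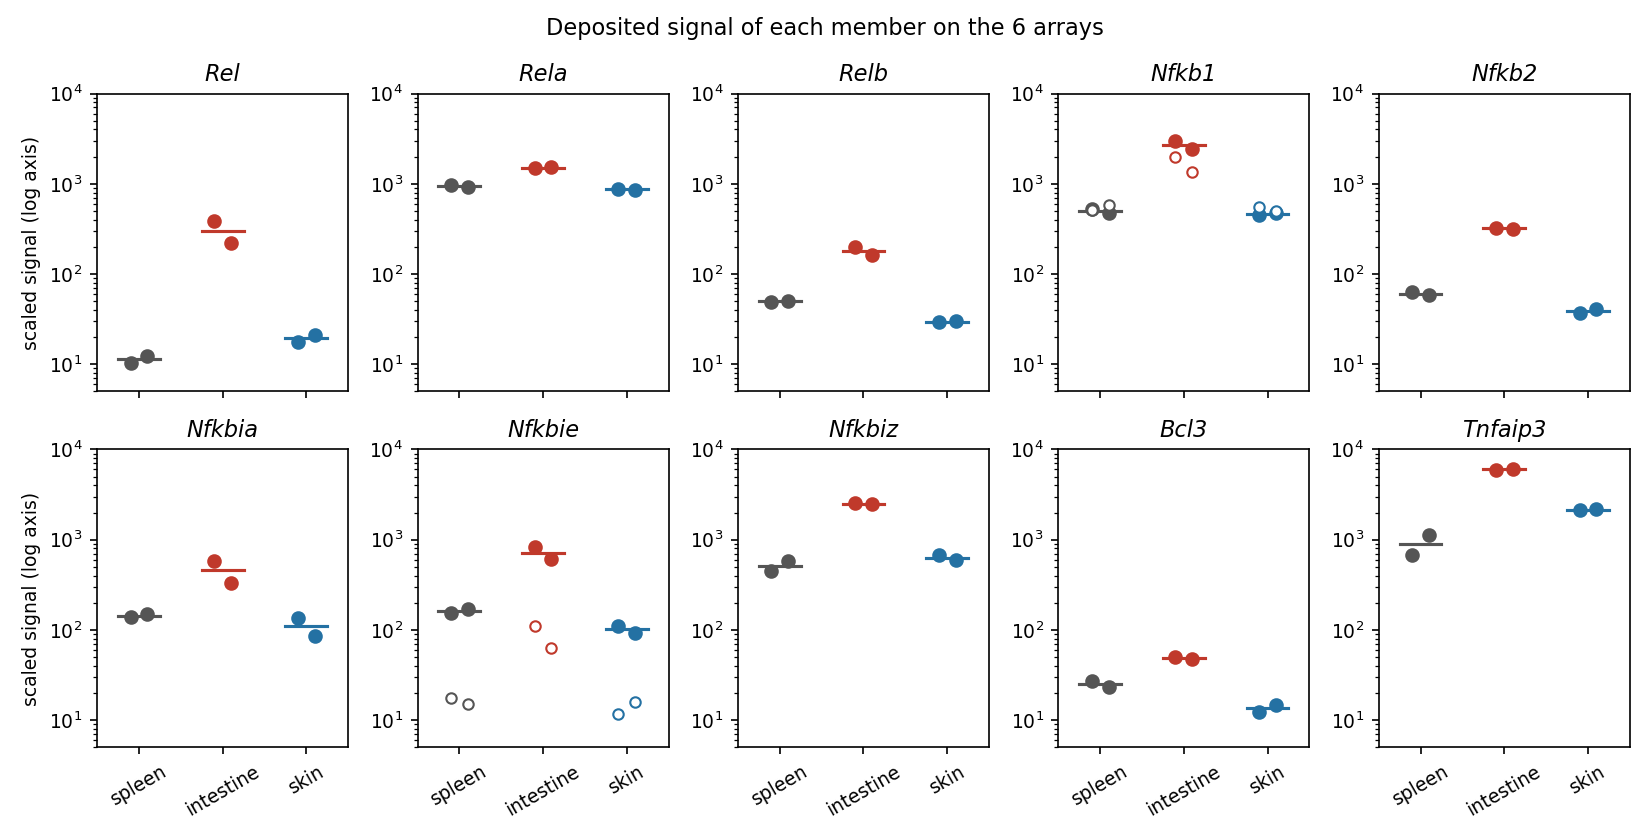
Scaled array signal (log axis, no unit) of the 10 genes on the 6 arrays, 1 panel per gene, with a point per array and a bar at the tissue mean. Open points are the probe of Nfkb1 and of Nfkbie with the lower mean over the 6 arrays. The intestine points lie above those of spleen and skin in every panel, and in the Tnfaip3 panel the skin points (2109.9 and 2168) also lie above those of spleen (673 and 1123).

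Rel encodes c-Rel, a subunit with its own activation domain that is abundant in lymphoid cells. Its probe read 10.4 and 12.2 for spleen, 384 and 219.8 for intestine and 17.7 and 21.4 for skin. The gene was thus dim in spleen and skin and bright in intestine, with no overlap between intestine and the others. Intestine exceeded spleen by 3.62 ± 0.20 on the log2 scale (12.3-fold, adjusted p = 9.65e-07), the largest difference among the 10 members. The plain ratio of the mean signals was 26.7, over a low spleen mean of 11.3. Of the other members, by the probe that stood for the gene, only Tnfaip3 had a ratio above its fold (6.74 and 6.70). With an offset of 4 in place of 16 the fold was 21.2, and with an offset of 64 it was 5.10, while the direction and the call did not change. The pair of intestine arrays differed by 0.66 in this gene.

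Rela encodes p65, the main activating subunit of the classical pathway. Its probe read 975 and 916 for spleen, 1476 and 1541 for intestine and 874 and 859 for skin. Intestine was higher on both arrays by a modest margin, and the skin arrays lay just under those of spleen. The difference between intestine and spleen was 0.73 ± 0.13 (1.66-fold, adjusted p = 0.00134), the smallest of the 10, and that between intestine and skin was 0.74 ± 0.13 (adjusted p = 0.00152). Rela was the 1 member under 2-fold in both comparisons of intestine, though against spleen it reached 1.02 with scaling to the median over the kept probes.

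Relb encodes the subunit that pairs with p52 in the NIK branch. Its signals were 49.4 and 50.3 for spleen, 199 and 164 for intestine and 29.4 and 30.1 for skin. The skin arrays were the lowest and the intestine arrays the highest, without overlap, but skin and spleen were not called different in the main setting. Intestine exceeded spleen by 1.98 ± 0.14 (3.95-fold) and skin by 2.25 ± 0.14 (4.77-fold).

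Nfkb1 encodes p105, the precursor of p50, the usual partner of p65 and c-Rel. Its probe with the higher mean over the 6 arrays read 529 and 475 for spleen, 2984 and 2449.7 for intestine and 456 and 477 for skin. Its other probe read 506 and 588 for spleen, 2000.1 and 1363 for intestine and 554 and 494 for skin. Both probes were high in intestine and level between spleen and skin. Intestine alone made the first probe the brighter, as the means were 502 against 547 in spleen and 467 against 524 in skin. The first gave a difference of 2.50 ± 0.14 between intestine and spleen (5.66-fold) and the second 1.70 ± 0.18, so the probes share the direction and differ in size. Nfkb2 encodes p100, the precursor of p52 and itself an IkappaB-like inhibitor. It read 63.0 and 58.4 for spleen, 323 and 318 for intestine and 37.2 and 41.2 for skin. Replicates lay close together in each tissue, and the difference between intestine and spleen of 2.48 ± 0.13 (5.59-fold, adjusted p = 6.22e-07) had the lowest adjusted p of the 10 members. Against skin it was 2.69 ± 0.13 (6.46-fold, adjusted p = 4.97e-07).

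Nfkbia encodes IkappaB alpha, the inhibitor that is degraded first and made again quickly. Its probe read 138 and 151 for spleen, 582 and 336 for intestine and 135 and 84.9 for skin. Intestine was again the highest tissue, but its arrays were apart by 0.65 and the skin arrays by 0.62. The difference between intestine and spleen was 1.84 ± 0.24 (3.58-fold, adjusted p = 0.00019), with the largest standard error of the 10. Nfkbie encodes IkappaB epsilon. Its brighter probe read 155 and 170.4 for spleen, 822 and 607 for intestine and 112 and 92.1 for skin. The dimmer probe read 17.6 and 15.1 for spleen, 112 and 62.7 for intestine and 11.6 and 15.9 for skin. On both probes intestine stood above spleen, by 2.30 ± 0.16 (4.92-fold) on the first and by 1.90 on the second.

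Nfkbiz encodes IkappaB zeta, a nuclear IkappaB protein that acts as a cofactor at a subset of NF-kappaB target genes. It read 448 and 576 for spleen, 2521 and 2499 for intestine and 679.6 and 591 for skin. The intestine arrays were nearly equal and far above the rest, and the lower skin array lay close to the higher spleen array. Intestine exceeded spleen by 2.37 ± 0.16 (5.16-fold) and skin by 1.88 ± 0.16 (3.68-fold). Bcl3 encodes a second nuclear IkappaB protein, which binds dimers of p50 and of p52. It read 27.5 and 23.2 for spleen, 50.5 and 48.2 for intestine and 12.4 and 14.7 for skin. The order from skin over spleen to intestine had no overlap, but skin and spleen were not called different in the main setting. Both skin arrays lay below both spleen arrays in 34.8% of all genes. Intestine exceeded spleen by 1.02 ± 0.14 (2.02-fold, adjusted p = 0.00023) and skin by 1.38 ± 0.14 (2.60-fold).

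Tnfaip3 encodes A20, an enzyme that edits ubiquitin chains on signalling proteins and so ends NF-kappaB signalling. Its probe read 673 and 1123 for spleen, 5955 and 6142 for intestine and 2109.9 and 2168 for skin. The 3 tissues did not overlap, and skin lay between spleen and intestine. Intestine exceeded spleen by 2.75 ± 0.21 (6.70-fold, adjusted p = 7.36e-06) and skin by 1.34 ± 0.21 (2.54-fold, adjusted p = 0.000802). Skin exceeded spleen by 1.40 ± 0.21 (2.64-fold, adjusted p = 0.00299). The spleen arrays differed by 0.76 in this gene, with replicate 2 the higher, so the difference between skin and spleen was 1.77 on slide 1 and 1.03 on slide 2.

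**Figure D2:**
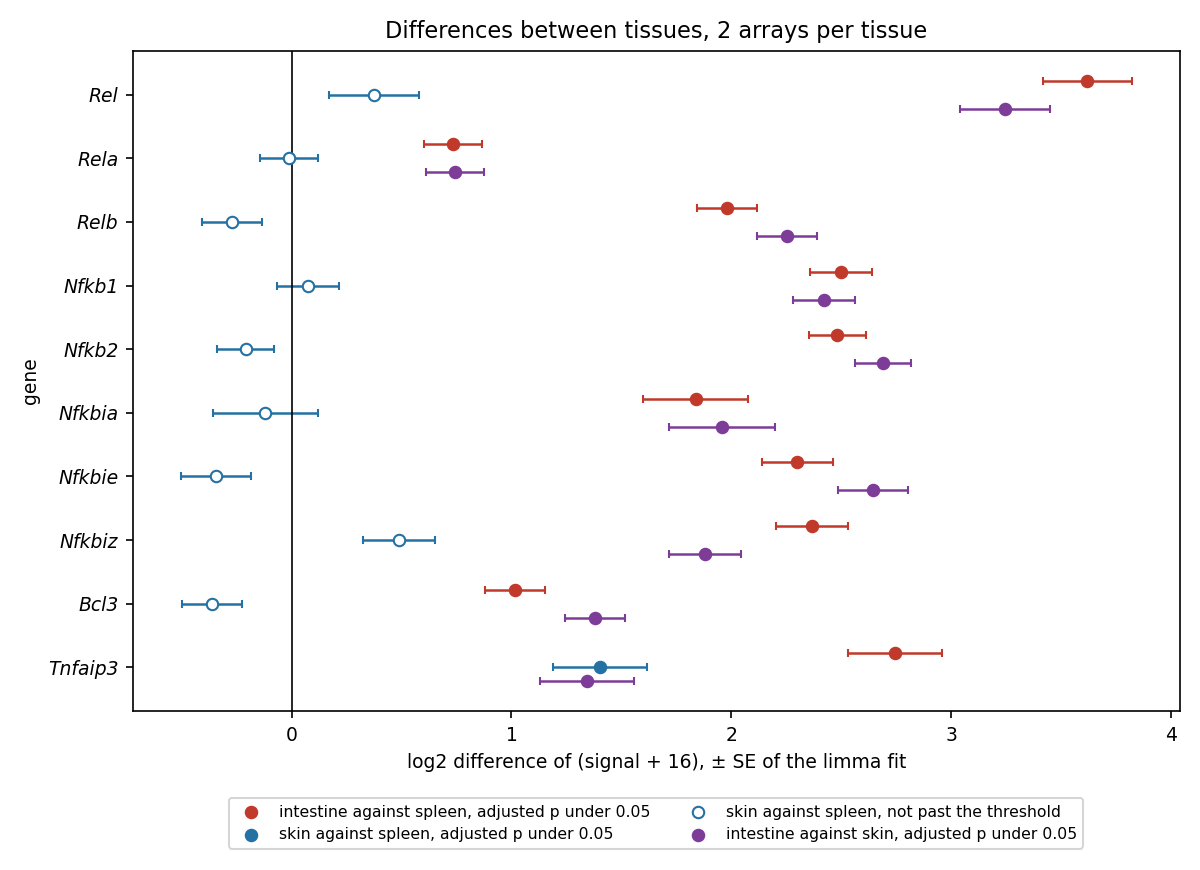
Log2 difference of (signal + 16) for the 10 genes in the 3 comparisons, with ± 1 standard error of the limma fit (2 arrays per tissue). Filled points have an adjusted p under 0.05. All points for intestine are filled and lie right of 0, from 0.73 (Rela, against spleen) to 3.62 (Rel, against spleen), while for skin against spleen only Tnfaip3 is filled.

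The 3 arrays of a replicate number were on 1 slide, as the array names show, so each comparison can also be read within a slide. Intestine against spleen was above 0 on both slides for all 10 members. Rel was 3.997 on slide 1 and 3.24 on slide 2, Nfkbia 2.23 and 1.45, Nfkb1 2.53 and 2.47, and Rela 0.63 and 0.84. The slides were furthest apart in Rel and Nfkbia, and lay close together in Nfkb1 and in Bcl3 (0.98 and 1.05). Against skin the range was from 0.65 (Rela, slide 1) to 3.69 (Rel, slide 1).

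In skin against spleen the members did not move as a group, and the median difference was -0.07 (0.00 over all genes tested, to 2 decimals). Apart from Tnfaip3, 9 of 10 did not pass the test. The nearest to the threshold was Nfkbiz at 0.49 ± 0.16 (adjusted p = 0.054), followed by Bcl3 at -0.36 ± 0.14 (adjusted p = 0.075). Rel stood at 0.38 ± 0.20 (adjusted p = 0.19), Nfkbie at -0.34 ± 0.16, Relb at -0.27 ± 0.14 and Nfkb2 at -0.21 ± 0.13. Nfkb1 (0.08), Rela (-0.01) and Nfkbia (-0.12) lay within 1 standard error of 0. On normalized values both skin arrays lay above both spleen arrays for Rel, Nfkbiz and Tnfaip3 (36.9% of all genes) and below them for Relb, Nfkb2, Nfkbie and Bcl3 (34.8% of all genes). Both shares of members are close to the background, and nothing is read from them.

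The calls between skin and spleen turned on how arrays were scaled. With each array scaled to its median over all probes, or left as deposited, Bcl3, Nfkb2, Nfkbie and Relb were called lower in skin beside Tnfaip3 higher, which made 5 calls. Scaled to the median over the kept probes, Rel and Nfkbiz were called higher beside Tnfaip3, with none lower. In that setting 4602 of all genes were called, 71.2% of them higher in skin. With the replicate number (slide) as a block, Nfkbiz was called at an adjusted p of 0.0461 by limma. Tnfaip3 was higher in skin under each of 16 alternative fits, by 1.03 to 1.80, with an adjusted p of 0.000796 to 0.0290. The 10 members were called higher in intestine in 162 of 162 member fits against spleen and in 162 of 162 against skin.

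**Figure D3:**
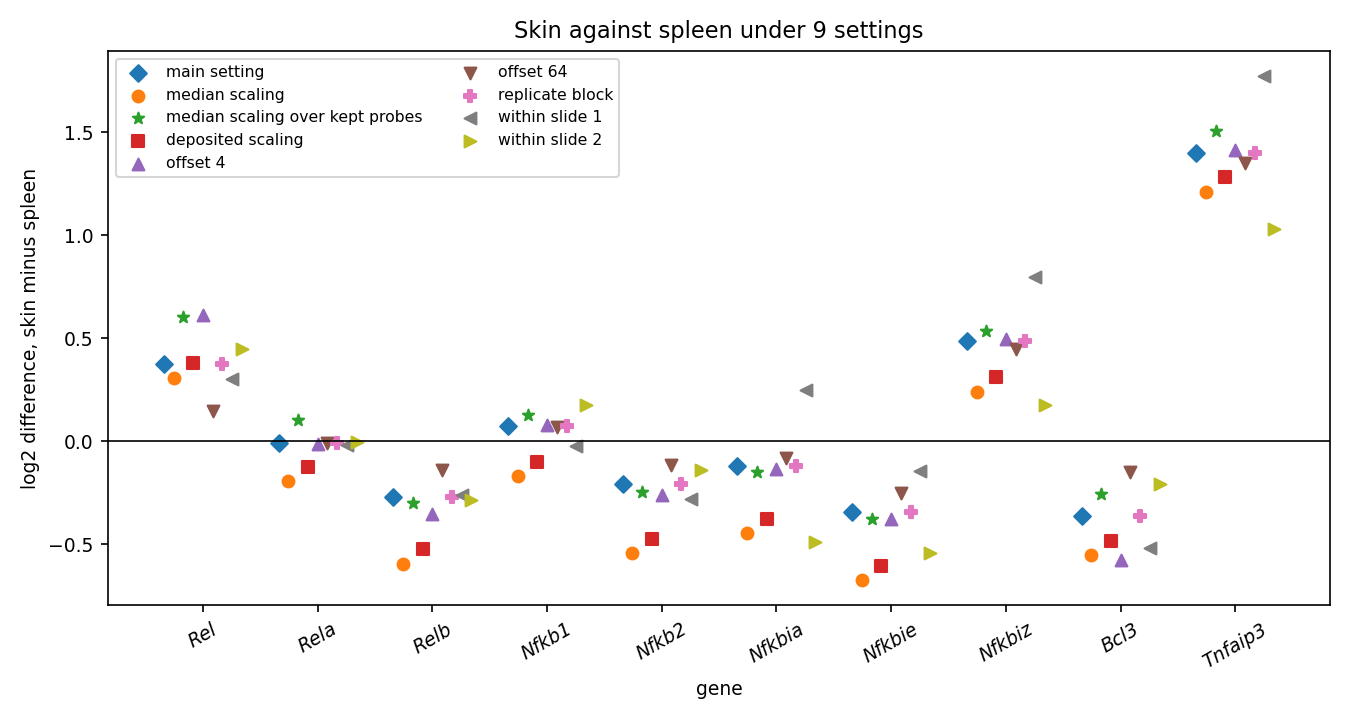
Log2 difference between skin and spleen for the 10 genes under 9 settings of the processing, 1 marker per setting, including the difference within each slide. The Tnfaip3 markers all lie at or above 1.03, while those of Nfkb1, Nfkbia and Rela fall on both sides of 0.

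Because several of these genes are known targets of NF-kappaB, the DNA before their start sites was searched for the kappaB consensus motif, guanines and a purine, then a short stretch of any bases, then pyrimidines that end in cytosines. Promoter sequence came from RefSeq (build GRCm38.p6), which held an entry for 7 of the 10 genes. Nfkb1, Relb and Nfkbiz had none. The motif was searched on both strands of the 300 bases from 250 before to 50 after each annotated start, and matches that overlap were counted as 1 place. A match was present in 6 of the 7 genes, all but Rela, and in 9.55% of the 27025 genes of the table. Among tested genes outside the members it was 12.0%. Matches in known targets were likely beforehand, so these shares are a description only. Within the 150 bases before the start it was present in 5 of 7 and in 5.29% of all genes. The 10 places lay in 6 genes, and Nfkb2 has several start sites whose windows share some of them. The stretches of 150 bases before the start that hold a match are shown because they let the letters be compared between a subunit (Rel, Nfkb2) and the inhibitors. They are written 5′ to 3′ on the strand of the gene, with the matches in capitals.
Rel: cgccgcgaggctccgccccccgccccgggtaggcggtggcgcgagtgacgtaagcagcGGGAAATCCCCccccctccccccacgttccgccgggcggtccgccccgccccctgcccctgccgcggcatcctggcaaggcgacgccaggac
Nfkb2: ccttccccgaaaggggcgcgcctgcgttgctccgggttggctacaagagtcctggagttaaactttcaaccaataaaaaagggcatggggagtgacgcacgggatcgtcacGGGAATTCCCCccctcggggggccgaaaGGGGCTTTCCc
Nfkbia: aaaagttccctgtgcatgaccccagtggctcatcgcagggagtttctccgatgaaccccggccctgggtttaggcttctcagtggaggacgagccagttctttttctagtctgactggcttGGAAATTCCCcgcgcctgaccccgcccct
Nfkbie: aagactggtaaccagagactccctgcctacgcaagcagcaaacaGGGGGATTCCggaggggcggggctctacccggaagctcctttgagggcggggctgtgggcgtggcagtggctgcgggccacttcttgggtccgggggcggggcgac
Tnfaip3: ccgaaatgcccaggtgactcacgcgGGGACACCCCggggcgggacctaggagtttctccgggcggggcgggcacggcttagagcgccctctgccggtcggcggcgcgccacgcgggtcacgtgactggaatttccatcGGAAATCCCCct
The Rel stretch is chr11:23770970-23771119 (minus strand), that of Nfkb2 chr19:46304587-46304736 (plus strand), and that of Nfkbia chr12:55492648-55492797 (minus strand). The Nfkbie stretch is chr17:45555550-45555699 (plus strand) and that of Tnfaip3 chr10:19015411-19015560 (minus strand). Each ends at the base before an annotated start of its gene. Bcl3 had its match just after the start, at bases 3 to 12, with the letters GGGAAGTCCC. The Rel match GGGAAATCCCC and the Nfkb2 match GGGAATTCCCC read as a motif on both strands, and the Nfkbia match GGAAATTCCC on the strand opposite to the gene. A match is a run of letters and not a measured binding site, and any part of the matches in the differences between tissues was not tested.

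**Figure D4:**
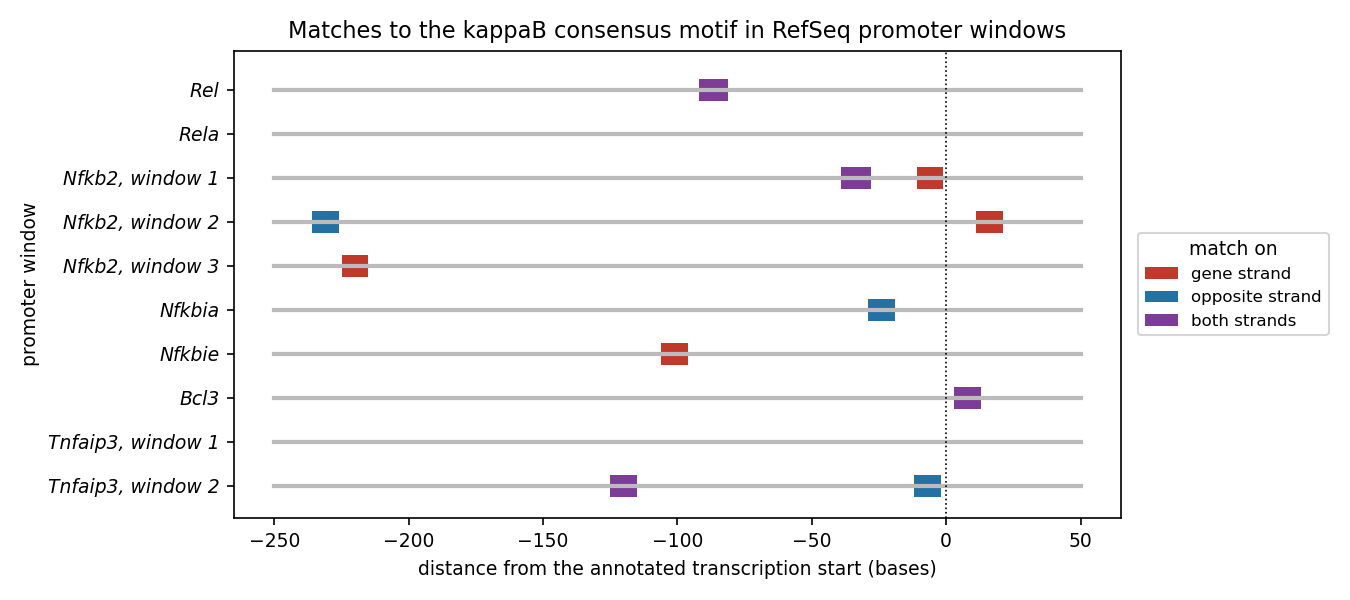
Matches to the kappaB consensus motif (coloured blocks) in the promoter windows of the 7 members with a RefSeq entry, by distance in bases from the annotated start, where colour gives the strand. Of the 7 genes, 6 hold at least 1 match, and the Rela window and 1 of the Tnfaip3 windows hold none.

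The other genes of the pathway were read from 3 lists. These were chosen with earlier results of these data known, so their shares beside those of all genes are a description only. Of 19 other inhibitors and regulators, 14 could be tested. In intestine against spleen 5 were called higher, 2 lower and 7 did not pass (median 0.15), against 21% higher and 28.3% lower over all genes. Zc3h12a, which encodes Regnase-1, an enzyme that cuts inflammatory mRNAs, read 6.77 and 10.9 for spleen, 87.0 and 81.0 for intestine and 16.6 and 14.6 for skin. The intestine arrays stood apart, by 2.19 ± 0.14 against spleen. Tnip1, which encodes ABIN-1, a partner of A20, read 268 and 321 for spleen, 1049 and 1011 for intestine and 237 and 253 for skin, a difference from spleen of 1.999 ± 0.14. Irak3, which encodes IRAK-M, a brake on Toll-like receptor signalling, exceeded spleen by 2.26 ± 0.16 and read 81.7 and 77.8 in intestine. It was not well above background on the skin arrays, and intestine was at least 4.62-fold higher than skin. Nfkbib, which encodes IkappaB beta, stood 1.95 ± 0.22 above spleen. Otud7b (-0.53 ± 0.14) and Commd1 (-0.43 ± 0.13) were the 2 called lower. With the arrays as deposited the lower calls rose to 6 and with scaling to the median over all probes to 7, while the higher calls stayed at 5 under both. Calls over all genes rose too, from 6630 (42.5% of them higher) to 7670 (25.7%) and 7747 (23.6%).

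In skin against spleen none of the 14 was called higher and 2 were called lower, Tax1bp1 (-0.51 ± 0.16) and Rnf11 (-0.51 ± 0.16), and 12 did not pass. That is 14.3% called, and 11.4% of all genes were called lower. The Tax1bp1 call was lost with scaling to the median over the kept probes. In intestine against skin 7 were higher (16.4% of all genes) and 3 lower (22.9% of all genes), the lower ones being Nkiras2 (-0.70), Pdlim2 (-0.63) and Commd1 (-0.51).

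Of 35 kinases and adaptors upstream of NF-kappaB, 34 could be tested. In intestine against spleen 12 were called higher (35.3%, and 21% of all genes), 8 lower (23.5%, and 28.3% of all genes) and 14 did not pass, with a median of -0.00 (all genes -0.04). The 3 IkappaB kinase genes did not pass the test. Ikbkb, which encodes the catalytic IKK beta, stood at 0.19 ± 0.19, Chuk, which encodes IKK alpha, at -0.00 ± 0.13, and Ikbkg, which encodes the scaffold NEMO, at -0.41 ± 0.21 (adjusted p = 0.128). The 3 with the largest difference upward were Map3k14, Traf1 and Irak2. Map3k14, the gene of NIK, read 118 and 108 for spleen, 671 and 556 for intestine and 153 and 141 for skin. The intestine arrays were again the highest, by 2.58 ± 0.14 against spleen. Nfkb2 and Relb, the members named above with its branch, stood at 2.48 and 1.98. The branch was not read as a set, so nothing is said of its other genes. Traf1, an adaptor of TNF receptors, read 594 and 673 for spleen, 3140 and 2973 for intestine and 724 and 829 for skin (2.32 ± 0.14 against spleen). Irak2, a kinase below Toll-like and IL-1 receptors, rose by 2.19 ± 0.18.

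Of the 8 genes of this list that were lower in intestine than in spleen, Prkcq, which encodes protein kinase C theta, had the largest difference. It read 286 and 303 for spleen, 51.7 and 46.5 for intestine and 252 and 229 for skin, a difference from spleen of -1.87 ± 0.14 and from skin of -1.81 ± 0.14. Tirap, an adaptor of Toll-like receptors, stood at -1.41 ± 0.20 and Irak4 at -0.95 ± 0.15 against spleen, and Tab1 at -1.04 ± 0.18 against skin. The split of this list moved with the scaling, to 8 higher and 18 lower with the median over all probes and 9 and 18 with the arrays as deposited. Of the calls over all genes, 42.5% were higher in the main setting, 23.6% with that median and 25.7% as deposited. In skin against spleen 5 were called higher (14.7%, near the 13.1% of all genes) and none lower, among them Map3k14 (0.60), Ticam1 (0.60) and Rnf31 (0.59). All 5 calls were lost under those same settings, which instead called 12 and 8 lower. Over all genes these settings made 5127 and 4708 calls in skin against spleen, 26.2% and 36.1% of them higher.

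Of 32 textbook target genes of NF-kappaB, 27 could be tested, and 20 were called higher in intestine than in spleen (21% of all genes), 2 lower (28.3% of all genes) and 5 did not pass (median 1.96). Cd83, which encodes a surface protein of activated lymphocytes and dendritic cells, read 30.4 and 30.2 for spleen, 537 and 529.9 for intestine and 37.5 and 39.8 for skin. It stood 3.82 ± 0.13 above spleen (14.1-fold). Bcl2a1a and Bcl2a1d, which encode anti-apoptotic A1 proteins, exceeded spleen by 3.48 ± 0.15 and 3.46 ± 0.14. They are near-identical copies whose probes may share RNA, so their values count as uncertain. Together with Bcl2a1b they were counted as separate genes among the 20. Cytokine and adhesion genes in the list included Csf2 (2.68 ± 0.14), Tnf (2.57 ± 0.25) and Icam1 (2.05 ± 0.16). Ccl5 (-0.83 ± 0.17) and Cflar (-0.43 ± 0.14) were the 2 lower ones, and the Ccl5 call was lost under all 3 other scalings, where it ranged from -0.40 to -0.01.

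In skin against spleen 5 targets were higher (13.1% of all genes), 6 lower (11.4% of all genes) and 16 did not pass (median 0.00, as over all genes). Junb, which encodes a subunit of the factor AP-1, read 527 and 705 for spleen, 3688 and 3153 for intestine and 1707 and 1982 for skin. It thus had the same order of tissues as Tnfaip3, with skin 1.69 ± 0.17 above spleen. Ccl4 (0.91 ± 0.15) and Tnfrsf9 (0.88 ± 0.16) were also higher in skin. Gadd45b (-0.76 ± 0.17), Irf1 (-0.73 ± 0.16) and Ltb (-0.57 ± 0.13) were lower. Gadd45b ran opposite in the intestine, at 3.90 ± 0.17 above skin, with Bcl2a1d (3.90 ± 0.14) and Bcl2a1a (3.85 ± 0.15). In intestine against skin the counts were again 20 higher (16.4% of all genes), 2 lower (22.9% of all genes) and 5 that did not pass, and the lower ones were Ccl4 (-0.59) and Ccl5 (-0.51, lost under the other scalings).

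**Figure D5:**
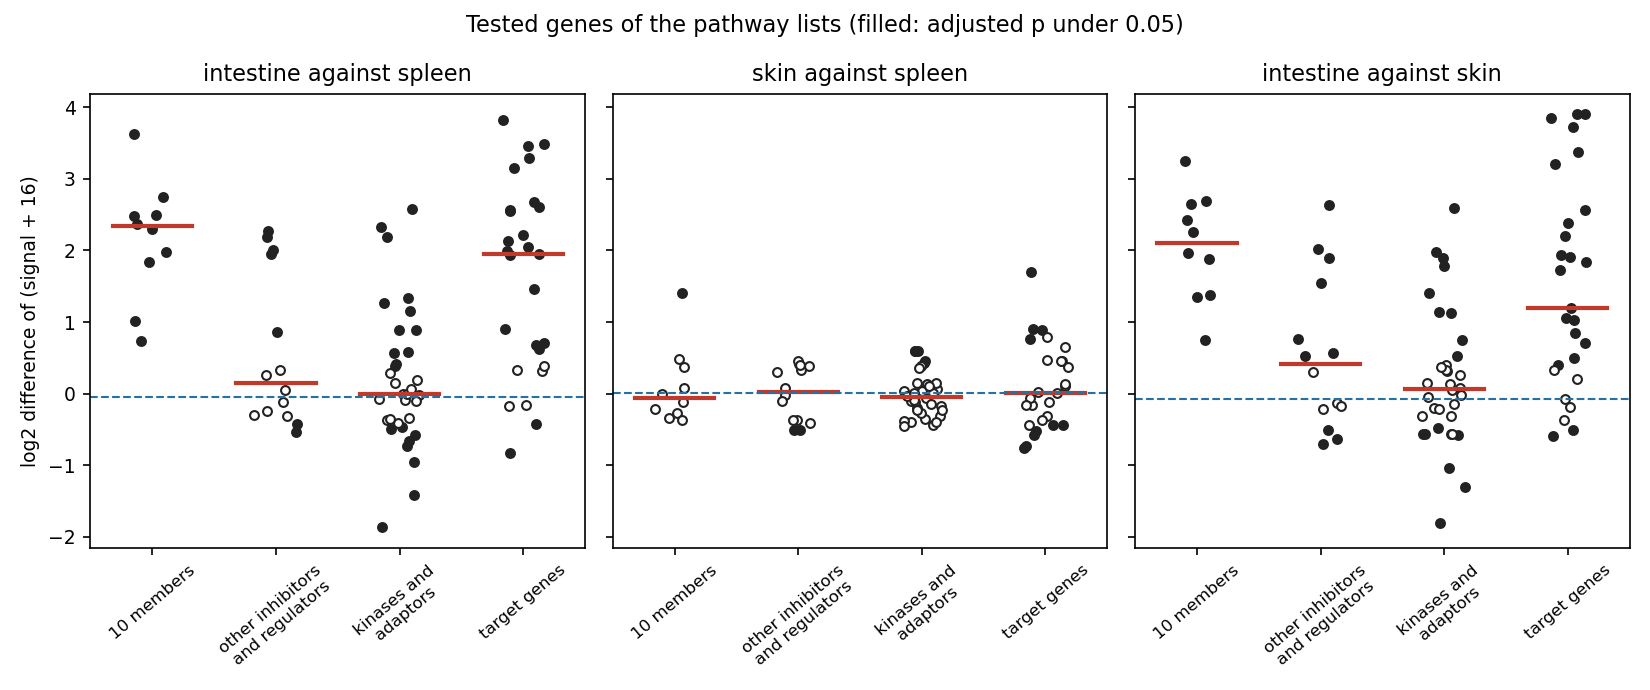
Log2 difference of (signal + 16) of each tested gene in 4 lists (10 members, 14 other inhibitors and regulators, 34 kinases and adaptors, 27 target genes) in the 3 comparisons. Filled points have an adjusted p under 0.05, red bars mark list medians and dashed lines the median of all 13455 genes. In both intestine panels the members and target genes lie mostly above 0, and the kinases and adaptors lie on both sides.

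For each member the 3 genes with the nearest pattern over the 6 arrays were found by Euclidean distance between values centred on their own mean, with Pearson r over the 6 arrays given as a description. The nearest to Rel was Dot1l (distance 0.41, r = 0.995), then Traf4 and Il21r. The nearest to Nfkb2 was Gabpb1 (0.16, r = 0.999), to Nfkb1 H60 (0.17), to Nfkbie Cemip2 (0.14) and to Rela Mvd (0.12). The first to Nfkbiz was Emb (0.30), with Zc3h12a second (0.30, r = 0.994) and Cd274 the third. Tnfaip3 had its nearest neighbour in Cebpb (0.41, r = 0.990), which stood 1.15 above spleen in skin and 2.62 in intestine. The nearest to Nfkbia was Cdkn1c (0.32), to Relb LOC381460 (0.12) and to Bcl3 2900057E15Rik (0.11). The 6 points share 3 tissues, so they are not independent of each other.

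Other features of the arrays moved with tissue. Detected probes numbered 18266 and 18530 for spleen, 16549 and 15279 for intestine and 15196 and 16477 for skin, and the mean signal before scaling was lower in intestine (82.7 and 50.9) and skin (43.7 and 53.4) than in spleen (137 and 131). Of 12 NK cell markers 11 were on the array and 10 were detected on all 6 arrays, and their summed signal was 24399 to 24864 in spleen, 13615 to 16018 in intestine and 22891 to 24198 in skin. Of the 11 tested, 10 were called lower in intestine than in spleen (28.3% of all genes) and 1 higher. Against skin, 8 were called lower in intestine (22.9% of all genes) and 0 higher. Of 10 markers of type 3 innate lymphoid cells 2 were detected on all 6 arrays and Il22, Il23r, Ccr6 and Il17f on none, with sums of 546 to 609, 2078 to 2087 and 232 to 305 in that order. Of 5 tested, 4 were called higher in intestine than in spleen (21% of all genes) and 0 lower, the direction of the members. Against skin, 4 were again called higher in intestine (16.4% of all genes) and 0 lower. Markers of macrophages, monocytes and dendritic cells, 15 in all, summed to 642 to 698, 266 to 315 and 487 to 528. Csf1r, Cd14, Fcgr1, Flt3 and Cd163 were among those detected on none. Lyz2, Adgre1, C1qa, C1qb, C1qc and Mrc1 were detected on both spleen arrays and on no intestine or skin array. Of 9 tested, 7 were called lower in intestine than in spleen (28.3% of all genes). Against spleen, 6 were called lower in skin (11.4% of all genes). Stromal and endothelial markers summed to 253 to 254, 634 to 770 and 250.1 to 267, and those of erythrocytes to 11746 to 17664, 711 to 1122 and 803 to 1058. T cell markers summed to 494 to 581, 575 to 882 and 525 to 576, with Cd3e, Cd4 and Cd5 detected on none. Of 4 T cell markers tested 2 were called higher in intestine than in spleen (21% of all genes), in the same direction as the members. These were Cd3g (2.35 ± 0.25, with 312 and 597 in intestine against 109 and 81.4) and Cd8a (1.19 ± 0.26). Cd8b1 was called lower (-0.43 ± 0.13), and Cd3d did not pass (-0.10 ± 0.17). Epithelial markers summed to 20.2 to 30.3, 87.1 to 132 and 40.7 to 55.4, with 10 of 15 detected on none and Cdh1 detected in intestine alone (61.1 and 84.5). Those of mast cells and granulocytes summed to 818 to 840.0, 42.9 to 65.4 and 163 to 223, led by Cma1, which was 3.98 lower in intestine than in spleen. The part of these other cells and of the array brightness in the results was not tested. The Rag2 probe read 0.341 to 13.2, was detected on 4 arrays and may lie outside the deleted part, so it checks nothing.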

How the data were processed

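Amplified RNA with a biotin label was read on Illumina arrays, per the labels' protocols, and BeadStudio 1.5.1.3 was used per the submitters' processing notes. The deposited signal is an average bead intensity per probe, per the file headers, with values already background-subtracted and scaled. The sources used here do not describe those steps. Beside each signal stands a detection p-value, deposited in the same table. From these, log2(signal + 16) was quantile normalized and fitted with limma 3.58.1 in R 4.3.3, with 1 mean per tissue over 6 arrays. A probe was kept if its detection p was below 0.01 on both arrays of some tissue (18583 probes). The kept probe with the highest mean over the 6 arrays stood for its gene (13455 genes). That choice used the same arrays that were compared. The p-values were adjusted over all 13455 genes. Replicate numbers mark slides, as the names of the arrays show. Differences between replicates 1 and 2 correlated between tissues at 0.157, 0.210 and 0.114 over genes, so the block was fitted as an alternative. Other offsets, scalings, filters and arrays left out were also tried, and scaling to the median over kept probes was added after seeing the data. The fit and the adjustment of p-values were tested on simulated normalized values with independent noise. The offset, normalization, filter and choice of probe were not part of that test.

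The 10 members and all lists were chosen with earlier results of these data known. Named genes were all members and, of each list in each comparison, the 3 called genes with the largest difference each way, if detected on both arrays where they were higher. Nfkbib, Csf2, Tnf, Icam1 and the IkappaB kinase genes were named in addition, after their values were seen. Only 2 arrays per tissue limit the precision. Promoter sequences are from RefSeq (GRCm38.p6). Gene names were updated by that table where it held them.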

Additional observations from a re-analysis of the deposited data

How the results depend on the processing

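All 10 members kept their direction and their call in both intestine comparisons under every alternative fit, where the smallest difference was 0.53 (highest adjusted p 0.0187 by limma) against spleen and 0.66 (0.0134) against skin. The limits lie in skin against spleen. There the genes called numbered 3300, and 5127 with scaling to the median over all probes, 1826 with no filter on detection and 2128 with an offset of 4. With 1 array left out they ranged from 495 (without spleen replicate 2) to 4745, and were 549 without spleen replicate 1, 982 without skin replicate 1 and 2041 without skin replicate 2. In intestine against spleen they ranged from 4072 (without spleen replicate 1; 4093 without the other) to 6693. The share of calls that were higher also moved with the scaling. For the main setting it was 42.5%, 53.4% and 41.8% (intestine against spleen, skin against spleen, intestine against skin). It was 23.6%, 26.2% and 33.8% with the median over all probes, 58.5%, 71.2% and 43.7% with the median over kept probes and 25.7%, 36.1% and 30.4% as deposited. The median of all genes moved to -0.28, -0.19 and -0.14, to 0.11, 0.11 and -0.05, and to -0.25, -0.12 and -0.18.

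Members called in skin against spleen numbered 5 as deposited, 5 with the median over all probes, 3 with the median over kept probes, 2 on probes detected on all 6 arrays, 2 with an offset of 64 and 2 with the replicate block (Nfkbiz beside Tnfaip3), and from 1 to 4 with 1 array left out (4 without either intestine array). The replicate block changed no other member's call. The sign of 3 uncalled members turned. Nfkb1 went to -0.10 as deposited and -0.17 with the median over all probes, and with 1 array left out ranged from -0.0026 to 0.16. Rela went to 0.10 with the median over kept probes, and with 1 array left out ranged from -0.035 to 0.014. Nfkbia ranged from -0.43 to 0.19 (without skin replicate 2) with 1 array left out, and was 0.25 on slide 1 and -0.49 on slide 2. The cause was not tested. Signal before scaling was lower on the intestine and skin arrays than on those of spleen, which limits what can be said of dim probes there.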

Other observations

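The kappaB motif was also counted in the promoter windows of genes outside the 10 members, as a description with no test. Of 8331 tested genes with a window, 12.0% held a match. Among the 396 called over 2-fold higher in intestine than in both spleen and skin, 18.7% did (74 genes), and among the 327 called over 2-fold lower, 10.1%. The 74 included Il2ra, the alpha chain of the IL-2 receptor, at 2.22 ± 0.16 above spleen, Vegfa, a growth factor of vessels, at 2.65, and Fosl2, a subunit of AP-1, at 2.70. Il4ra, a receptor chain for IL-4, stood 3.19 above spleen and 3.31 above skin. These 4 were chosen after their values were seen. Il2ra was not well above background on the arrays of spleen and skin, and intestine was at least 4.22-fold higher than spleen and at least 3.75-fold higher than skin.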
